A study of Homo sapiens with 18 samples.

Results

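Keratins and claudins were followed as 2 families of epithelial structural genes in MDA-MB-231, a breast cancer cell line that lacks hormone receptors. Members were all genes with a protein-coding transcript whose symbol is KRT or CLDN followed by a number (for keratins with an optional A, B or C), which gave 79 of the 62749 genes in the tables. They comprised 55 keratins (28 of type I, 26 of type II and the keratin-like KRT222) and 24 claudins. No measured value entered this choice. RNA was sequenced from 18 libraries in 6 groups of 3. Unedited cells (WT) stood beside cells whose IMPDH2 had been knocked out (KO) and beside KO cells supplied with guanosine at 400 µM. In the remaining groups KO cells carried IMPDH2 again, as a form with no stated localisation (unlocalised), as a nuclear form or as a cytosolic form. The 5 groups other than WT all carry the knockout, only 1 of them received guanosine, and the reconstituted groups received none. IMPDH2 makes the precursor of guanine nucleotides, which cells can also obtain from guanosine. Whether the knockout was a single clone or a pool, and how each form was expressed or targeted, is not given in the sources used here.

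Keratins are the intermediate filament proteins of epithelia, and each filament is built from pairs of 1 type I and 1 type II keratin. KRT8 and KRT18 are the founding pair of simple epithelia, such as the luminal layer of the breast duct, with KRT19 and KRT7 beside them. KRT5, KRT14, KRT15 and KRT17 are typical of basal layers, KRT1 and KRT10 of differentiating epidermis, and the hair keratins, such as KRT81, KRT85 and KRT86, of the hair shaft. Claudins are membrane proteins of tight junctions that seal the space between epithelial cells or form selective pores in it. MDA-MB-231 is commonly placed in the claudin-low class of breast cancers, which keep little of the tight junction programme.

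Library totals ranged from 45865079 to 63276484 estimated counts. IMPDH2 checked the labels: it was at 318.8 ± 0.557 (SD, n = 3) CPM (counts scaled by TMM to a common library size) in WT, 41.6 ± 0.566 in KO, 22.1 ± 0.11 with guanosine, 532.2 ± 10.4 for unlocalised, 297.4 ± 12.6 for nuclear and 378.7 ± 13.9 for cytosolic IMPDH2. The mesenchymal filament VIM lay between 3249 and 4971 CPM in all libraries, and CDH1, the epithelial cadherin, reached 0.168 CPM at most. ESR1 and PGR stayed at or below 0.28 and 0.064 CPM, but ERBB2 was not low, at 68.1 to 84.6 CPM. Of 15 markers of blood, endothelial and fibroblast cells, CD3E was at 0 in 16 of 18 libraries and HBB in 17. Their summed level was 26 to 28.7 CPM in WT, 11.3 to 12.6 in KO, 11.5 to 12.7 with guanosine, 11.6 to 13.1 for unlocalised, 12.9 to 13.1 for nuclear and 9.79 to 10.5 for cytosolic IMPDH2. COL1A1 and PECAM1 had the highest group means of the 15 markers. They averaged 12.187 and 11.071 CPM in WT, and at most 7.339 and 5.1 in a knockout-derived group. Both had counts in every library, as did CD14, LYZ, PTPRC, VWF, COL3A1 and LUM. The part the 15 markers play in the results against WT was not tested. The labels do not say whether libraries came from separate cultures, so p-values take in no more than the spread among these samples, which may be technical.

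Only 25 members (16 keratins and 9 claudins) had enough counts to be tested, and 18 of them reached 1 CPM in at least 1 group. The other 54 were not tested: 20 had no count in any library, their median total over 18 libraries was 1 count, and the highest was 87 for CLDN6. KRT5 and KRT6A had 1 count each over all libraries, KRT14 had 64, CLDN5, the endothelial claudin, had 2, and KRT1 and KRT2 had 0. Since a gene could pass through the group where it was high, the 25 are not a sample of the families. On the TPM scale, which divides by transcript length and allows genes to be compared, the WT cells expressed the simple-epithelial set: KRT8 stood at 256 ± 2.04 TPM (SD, n = 3), KRT18 at 223 ± 10.5, KRT19 at 187 ± 15.8 and KRT7 at 53.0 ± 2.3. CLDN12 led the claudins at 46.4 ± 0.388 TPM, followed by CLDN4 at 29.2 ± 0.478 and CLDN7 at 20.4 ± 1.64. The levels of KRT8 and KRT18 differed by more than their SDs, as did those of KRT18 and KRT19. The order of KRT8 and KRT18 depends on the transcripts counted. With coding transcripts alone, a choice made after seeing the data, the WT ratio of KRT18 to KRT8 was 1.44 ± 0.0201.

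In KO the simple-epithelial keratins were lower than in WT, KRT7 and KRT81 had nearly gone, and the claudins split, with CLDN4 much lower and CLDN15, CLDN1 and CLDN12 higher. A member was called where edgeR's quasi-likelihood test, adjusted by Benjamini-Hochberg over all 19252 genes tested, gave a value below 0.05. By this rule 18 of the 25 tested members differed between KO and WT, 6 higher and 12 lower. That share of 72% stood beside 72.7% of all genes tested (35.9% higher and 36.8% lower), so the number of calls does not set the members apart. In bulk RNA a lower level may come from fewer cells of a type or from less RNA per cell, and these cannot be told apart. At a 2-fold change or more the members' share was 52% (13 of 25) against 22.7% of all genes. This share includes KRT85 and CLDN2, which had enough counts only through WT, and KRT39, which had enough only through knockout-derived groups. Their directions were favoured in advance. The median log2 fold change was -0.98 over the 16 keratins (3 higher, 9 lower) and 0.04 over the 9 claudins (3 higher, 3 lower), and 0.01 over all genes tested; it is the same with KRT85, which had no count in KO, at its bound. TMM scaling placed every log2 difference between KO and WT 0.161 below one taken from library totals.

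**Figure D1:**
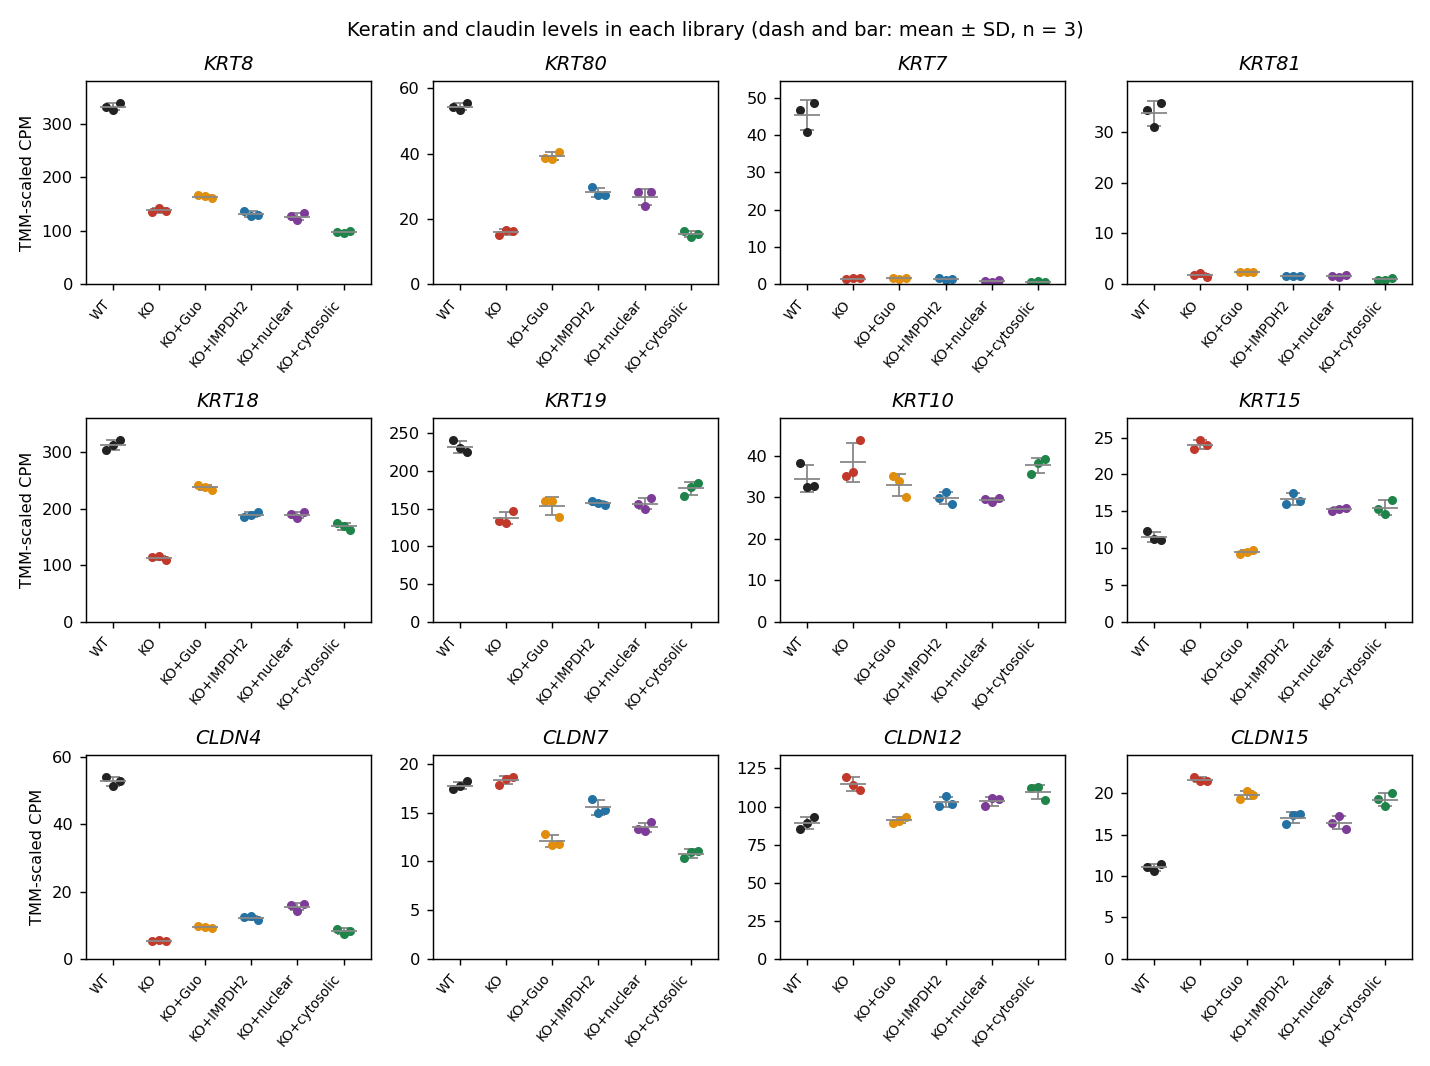
TMM-scaled CPM (linear axis from 0) of 12 members in each library of the 6 groups, with dots for libraries and a dash with a bar for the mean ± SD (n = 3); Guo is guanosine. KRT7, KRT81 and CLDN4 are high in WT alone, whereas KRT18 and KRT80 stand between KO and WT with guanosine, and KRT15 is highest in KO.

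KRT8, the type II partner of KRT18, read 332, 326 and 339 CPM in the WT libraries and 134, 143 and 137 in KO. KRT18 read 303, 314 and 322 CPM in WT and 114, 116 and 109 in KO. Neither gene's groups overlapped, and both partners stood below WT in every knockout-derived library. KRT8 fell by 1.26 on the log2 scale (SE 0.035, adjusted p = 6.93e-16) and KRT18 by 1.47 (SE 0.032, adjusted p = 4.36e-17). KRT19, the smallest type I keratin, went from 241, 230 and 226 CPM to 134, 131 and 147, a smaller fall (log2 fold change -0.76, SE 0.053, adjusted p = 3.19e-10).

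KRT7, a type II keratin of glandular and ductal epithelia, had the largest fold among members above 10 CPM in WT. Its WT libraries read 46.7, 40.8 and 48.6 CPM and its KO libraries 1.53, 1.63 and 1.61, a log2 fold change of -4.83 (SE 0.121, adjusted p = 1.91e-16). The low level was shared by all knockout-derived groups, with means of 1.63 CPM with guanosine and 1.37, 0.975 and 0.687 for the unlocalised, nuclear and cytosolic form. The only coding transcript, KRT7-201, moved further than the gene, from 26.9 ± 2.0 TPM in WT to 0.347 ± 0.108 in KO and 0.25 to 0.642 in the other groups. KRT7-212, listed without a defined coding sequence, was at 1.18 ± 0.606 TPM in WT and 1.44 ± 0.0783 in KO, and made up 58.4% of the gene's TPM in KO. What remained under the name KRT7 in KO was therefore mostly not assigned to the coding transcript.

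Of the hair keratins, KRT81, KRT86 and KRT85 were lower in KO too, KRT39 was higher at 43 counts against 15 (log2 fold change 1.30, SE 0.463, adjusted p = 0.015 by edgeR), and KRT32 and KRT34 were not called (adjusted p = 0.147 and 0.75). KRT39 passed the filter on counts only through knockout-derived groups, so a rise over WT was favoured in advance. KRT81 read 34.2, 30.9 and 35.6 CPM in WT and 1.94, 2.16 and 1.43 in KO (log2 fold change -4.19, SE 0.125, adjusted p = 2.45e-15). KRT86 went from 3.76, 2.82 and 4.20 CPM to 0.593, 0.825 and 0.807 (log2 fold change -2.27, SE 0.249, adjusted p = 2.08e-07). KRT81 shares 52.4% of its 31-base words with other genes, 42.5% with KRT86, which also spans it, so reads could be divided between them and their separate values are uncertain. KRT85 had 41 counts over the WT libraries and none in KO (adjusted p = 0.000121, edgeR). That is a level at least 14.1-fold lower when 3 counts per group are taken as the floor. The gene passed the filter on counts only through WT, so this direction was fixed in advance. KRT80, a type II keratin found in many epithelia, read 54.2, 53.5 and 55.6 CPM in WT and 15.1, 16.7 and 16.4 in KO (log2 fold change -1.76, SE 0.059, adjusted p = 9.24e-15).

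KRT79, a keratin of hair follicle and gland ducts, was lower in KO at 0.467, 0.733 and 0.443 CPM against 1.33, 1.19 and 1.14 in WT (log2 fold change -1.16, SE 0.436, adjusted p = 0.0246). This call was lost without WT replicate 1 (adjusted p = 0.0751), without KO replicate 1 (0.078) or 3 (0.0852), with an offset for transcript length (0.084) and with coding transcripts alone (0.138), all by edgeR's quasi-likelihood test. In the other knockout-derived groups KRT79 was lower still, with 6 counts over the guanosine libraries, 9 for unlocalised, 5 for nuclear and 15 for cytosolic IMPDH2, against 94 in KO and 184 in WT.

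Keratins of stratified epithelia did not move as one. KRT15, a basal-layer and progenitor keratin, rose in KO from 12.3, 11.2 and 11.1 CPM to 23.4, 24.7 and 24.0 (log2 fold change 1.06, SE 0.053, adjusted p = 2.24e-12). KRT17, a basal and injury-response keratin, rose from 0.601, 0.36 and 0.42 CPM to 1.08, 1.03 and 1.06 (log2 fold change 1.19, SE 0.311, adjusted p = 0.00225), and lost the call with an offset for transcript length (adjusted p = 0.0895). KRT10, of differentiating epidermis, was not called at 34.4 ± 3.25 CPM in WT and 38.3 ± 4.72 in KO (SD, n = 3 each; adjusted p = 0.081 by edgeR), and its libraries overlapped. KRT34, a hair keratin, was at 2.20 ± 0.19 CPM in WT and 2.13 ± 0.144 in KO and was not called either.

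CLDN4, a sealing claudin of simple epithelia, carried the largest fall among the claudins above 1 CPM. Its libraries read 54.1, 51.4 and 52.9 CPM in WT and 5.26, 5.63 and 5.14 in KO (log2 fold change -3.31, SE 0.067, adjusted p = 1.35e-17). CLDN2, which forms a cation and water pore, dropped from 139 counts over the WT libraries to 5 over the KO libraries, a ratio of 28.7 (exact 95% interval for counting error 12 to 89.7). The gene passed the filter on counts only through WT, so this direction was fixed in advance. The 50 other coding genes tested nearest to CLDN2 had a median log2 fold change of -0.608. CLDN23 went from 4.45 ± 0.768 CPM to 2.78 ± 0.202 (log2 fold change -0.68, SE 0.137, adjusted p = 0.000228).

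CLDN15, a pore-forming claudin best known from the intestine, went the other way, from 11.1, 10.6 and 11.4 CPM in WT to 21.9, 21.4 and 21.4 in KO (log2 fold change 0.97, SE 0.047, adjusted p = 1.55e-12). CLDN1, a sealing claudin of epidermis and many other epithelia, read 9.81, 10.4 and 11.1 CPM in WT and 13.9, 14.2 and 14.2 in KO (log2 fold change 0.44, SE 0.066, adjusted p = 9.42e-06). CLDN12, which lacks the usual binding motif for junction scaffolds, read 85.5, 89.4 and 93.3 CPM against 119, 114 and 111 (log2 fold change 0.36, SE 0.039, adjusted p = 1.22e-07). CLDN7, common in breast and other glandular epithelia, overlapped between groups at 17.8 ± 0.395 CPM in WT and 18.3 ± 0.426 in KO (adjusted p = 0.426, edgeR). The claudin total overlapped between the groups, at 108 ± 1.94 TPM in WT and 109 ± 3.85 in KO, while its makeup differed, and it was 84.5 to 94.5 TPM on average in the other groups. CLDN4 gave 27.0% ± 0.561 of that total in WT and 2.74% ± 0.319 in KO, and CLDN12 42.9% ± 0.467 and 59.7% ± 1.62.

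The 250 bases upstream of CLDN4, CLDN2 and CLDN15 are shown for 2 reasons. Of the 14 tested members with an upstream entry, these 3 hold the AP-1 element TGANTCA, on either strand, at the first start listed. CLDN4 and CLDN2 were also lower in KO while CLDN15 was higher. KRT7, KRT15, KRT18, KRT19, KRT80 and KRT81 were among the tested members with no entry and were not searched. Sequences are from RefSeq on GRCh38.p14, read 5′ to 3′ in the direction of the gene and ending at the base before the start, with the element in capitals. CLDN4 is on the plus strand at chr7:73830746-73830995, CLDN2 on the plus strand at chrX:106899914-106900163 and CLDN15 on the minus strand at chr7:101237803-101238052.
CLDN4: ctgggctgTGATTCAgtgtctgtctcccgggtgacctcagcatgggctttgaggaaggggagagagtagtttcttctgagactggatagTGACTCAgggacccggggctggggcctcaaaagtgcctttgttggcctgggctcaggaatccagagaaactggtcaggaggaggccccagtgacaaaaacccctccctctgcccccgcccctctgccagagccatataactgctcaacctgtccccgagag
CLDN2: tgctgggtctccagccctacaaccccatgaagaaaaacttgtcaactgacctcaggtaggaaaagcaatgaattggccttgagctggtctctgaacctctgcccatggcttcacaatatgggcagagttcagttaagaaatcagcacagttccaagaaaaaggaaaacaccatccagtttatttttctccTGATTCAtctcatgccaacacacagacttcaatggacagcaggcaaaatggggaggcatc
CLDN15: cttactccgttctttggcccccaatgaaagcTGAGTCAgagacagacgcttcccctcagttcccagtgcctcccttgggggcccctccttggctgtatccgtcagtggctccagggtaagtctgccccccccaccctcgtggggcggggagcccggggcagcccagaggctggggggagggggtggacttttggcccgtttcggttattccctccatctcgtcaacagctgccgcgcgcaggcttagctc
CLDN4 holds the element at 242 and 161 bases before its start, CLDN2 at 60 and CLDN15 at 219. Among the 14 tested members with an entry, 3 (21.4%) held TGANTCA, against 6.57% of 35116 upstream sequences of the same length. The E2 box CACCTG, on either strand, was in 2 of 14 (14.3%) against 17.5%, and the broader E box CANNTG, which includes it, in 10 (71.4%) against 61.8%. The GC box GGGCGG was in 4 (28.6%) against 42.6% and TATAAA in 3 (21.4%) against 10.7%. These matches describe letters only.

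**Figure D2:**
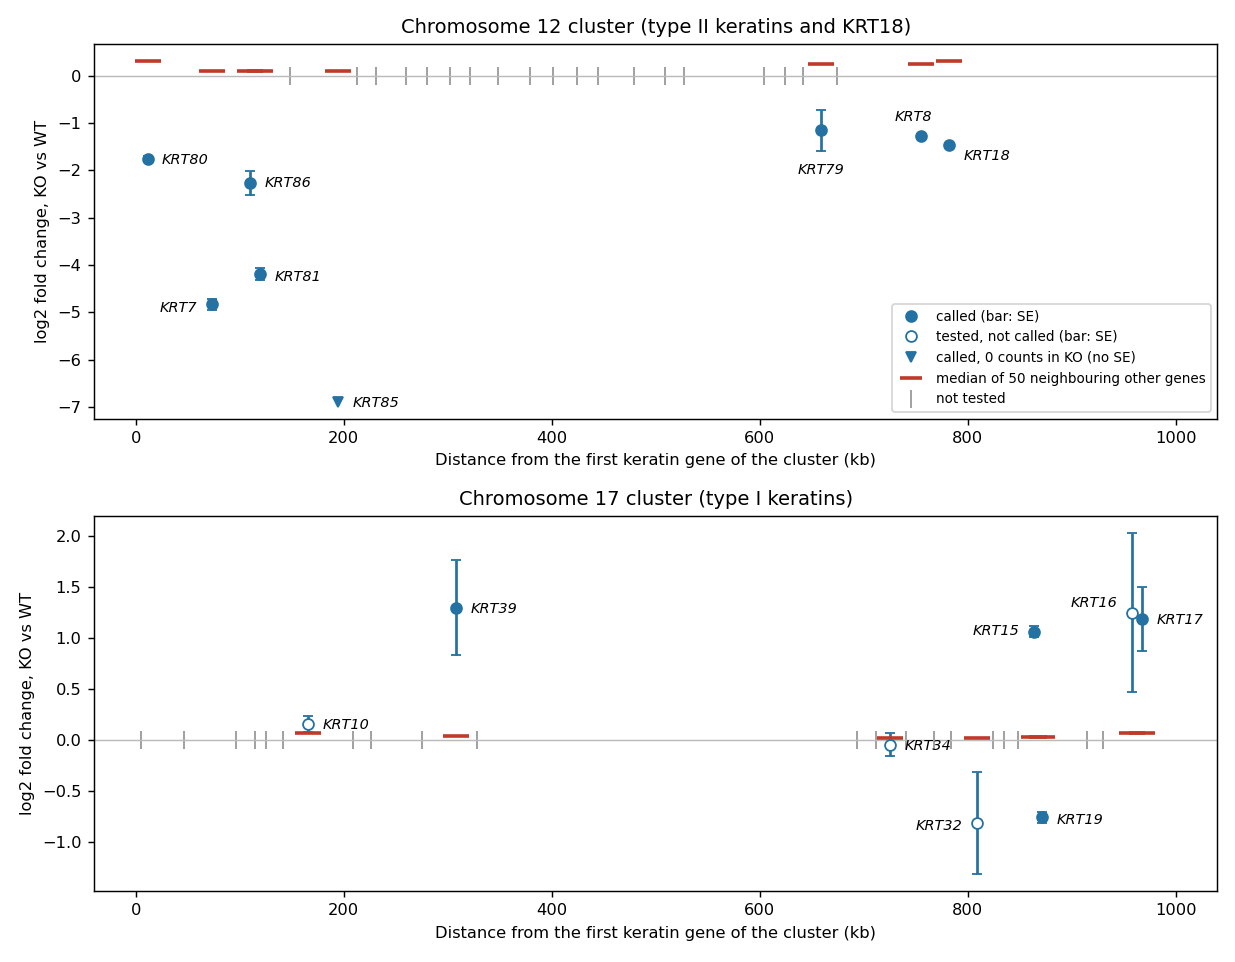
Log2 fold change of KO against WT (bar: SE) for each tested keratin, placed by distance in kb from the first keratin gene of its cluster; ticks are keratins not tested, the triangle is KRT85, whose fitted value with no count in KO is no bound, and red dashes are the median of the 50 nearest other coding genes tested. All 8 tested genes of the chromosome 12 cluster lie below 0, and those of chromosome 17 lie on both sides. KRT85 passed the filter on counts only through WT.

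The keratins called lower in KO lay in the chromosome 12 cluster, apart from KRT19 on chromosome 17. Since the chromosome 12 cluster holds the type II keratins, position and keratin type cannot be told apart. On GRCh38, 27 members (the 26 type II keratins and KRT18) lie within 783.9 kb of chromosome 12, from 52168996 to 52952901, and 28 keratins within 970.2 kb of chromosome 17, from 40654665 to 41624842. Each of the 8 tested genes of the chromosome 12 cluster (KRT80, KRT7, KRT86, KRT81, KRT85, KRT79, KRT8 and KRT18) was lower in KO. KRT85 had passed the filter on counts only through WT, so its direction was fixed in advance and adds nothing to this count. The KRT79 call was lost in several refits, as given above. The 50 coding genes nearest to each of the 8, keratins left out, had median log2 fold changes between 0.11 and 0.31. The fall was thus not shared by the typical neighbour. The smallest falls were those of KRT79, KRT8 and KRT18 at the far end of the cluster (log2 fold changes -1.156, -1.265 and -1.471). KRT7 and KRT81 fell the most among genes with counts in KO (-4.832 and -4.193). The falls did not follow the order of the genes. KRT80, the first gene, changed by -1.756, and KRT86, next to KRT7 and KRT81, by -2.272. KRT85, with no count in KO, was not ranked. KRT7 and KRT86 overlap by 2.9 kb, and KRT8 and KRT18 overlap by 1.1 kb on opposite strands, and whether reads from these stretches were divided between the neighbours was not tested. KRT7 shared 4.85% of its 31-base words with other genes, most with KRT6B, KRT6C and PRPH.

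In the chromosome 17 cluster directions were mixed. KRT15 (41513743 to 41522529, minus strand) rose and KRT19 (41523617 to 41528308, minus strand), 1.1 kb away, fell, with a median of 0.03 over the neighbours of each. CLDN3 and CLDN4 are also neighbours, on chromosome 7 (73768997 to 73770270 on the minus strand and 73799542 to 73832693 on the plus strand). CLDN3 was at 0.36 ± 0.0733 CPM in WT and 0.536 ± 0.131 in KO and was not called (adjusted p = 0.119, edgeR), while CLDN4 fell 9.89-fold, and their neighbours' median was 0.04.

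**Figure D3:**
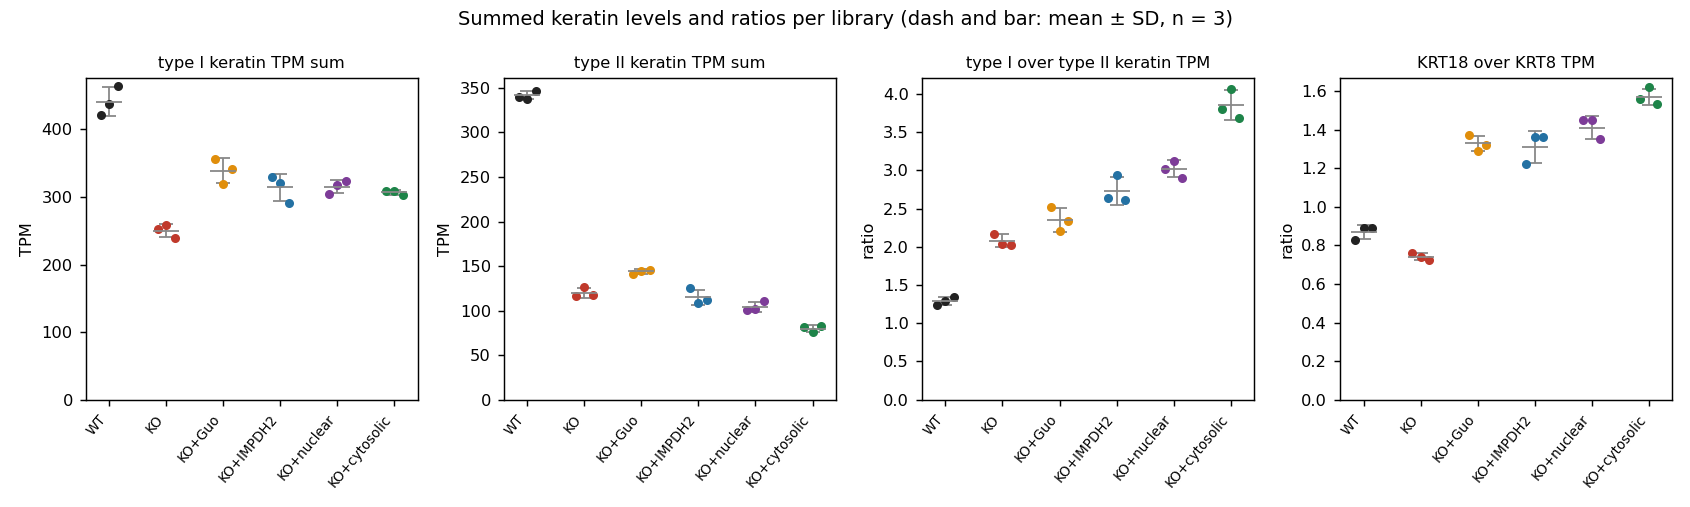
Summed TPM of type I and of type II keratins, their ratio, and the ratio of KRT18 to KRT8, in each library (dots) with mean ± SD (n = 3), all on linear axes from 0. The type II sum is highest in WT, at 338 to 347 TPM, and lowest with cytosolic IMPDH2, at 76.0 to 82.3, and the type I over type II ratio is 3.68 to 4.06 there.

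Because type II keratins fell further than type I, the balance of the families shifted. Type II keratins summed to 342 ± 4.96 TPM in WT and 120 ± 5.86 in KO (SD, n = 3), and type I keratins to 441 ± 22.0 and 250 ± 10.0. The ratio of type I to type II was 1.29 ± 0.049 in WT, 2.08 ± 0.0848 in KO, 2.35 ± 0.161 with guanosine, 2.73 ± 0.184 for unlocalised, 3.02 ± 0.109 for nuclear and 3.85 ± 0.197 for cytosolic IMPDH2. WT lay below every knockout-derived library and the cytosolic form above every other library, whereas the nuclear and unlocalised groups overlapped. The KRT18 to KRT8 ratio was 0.87 ± 0.0348 in WT and 0.741 ± 0.0174 in KO, but 1.31 to 1.57 on average in the other groups, so KRT18 exceeded KRT8 where KO cells had received guanosine or IMPDH2, in every library, and lay below it in every WT and KO library. These ratios were not tested. A retained-intron transcript, KRT8-211, held 34.6% to 38.9% of KRT8 TPM in each group. With coding transcripts alone, a choice made after seeing this, the KRT18 to KRT8 ratio was 1.44 in WT and 1.4 in KO, and 2.33 to 2.93 in the other groups, and the type I to type II ratio 2.04, 3.76 and 3.88 to 6.77.

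The next comparisons asked what guanosine or returned IMPDH2 did to these genes in KO cells. They share the KO libraries, so they are given side by side and not as independent evidence. Guanosine gave 9 higher and 7 lower of 25 (64%, against 56.5% of all genes tested, 27.3% higher and 29.2% lower). The unlocalised form gave 4 higher and 9 lower (52%, against 50.8%, 25.7% and 25.1%). The nuclear form gave 5 higher and 10 lower (60%, against 53%, 26.1% and 26.9%), and the cytosolic form 5 higher and 11 lower (64%, against 50.6%, 24.6% and 26%). Changes of at least 2-fold made up 24% of members with guanosine against 7.69% of all genes, and 8%, 12% and 24% with the 3 forms against 4.96%, 6% and 5.52%. With an offset for transcript length the unlocalised form gave 8 calls (3 higher and 5 lower), where 33.8% of all genes were called. The median log2 fold change over the 25 members was 0.16 with guanosine, -0.13, -0.15 and -0.14 with the unlocalised, nuclear and cytosolic form, and between -0.02 and -0.01 over all genes tested.

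Guanosine moved 2 keratins upward by more than 2-fold. KRT80 stood at 38.6, 38.4 and 40.7 CPM with guanosine against 15.1, 16.7 and 16.4 in KO (log2 fold change 1.28, SE 0.06, adjusted p = 4.07e-12), which is 72.1% of the WT mean. KRT18 stood at 242, 238 and 233 CPM (log2 fold change 1.07, SE 0.033, adjusted p = 1.73e-14), or 76% of WT. Its partner KRT8 rose far less, to 167, 164 and 161 CPM (log2 fold change 0.25, SE 0.035, adjusted p = 9.46e-06), or 49.4% of WT. CLDN4 rose to 9.63, 9.35 and 9.09 CPM (log2 fold change 0.81, SE 0.072, adjusted p = 2.55e-08), still 17.7% of WT. KRT7 did not pass the test with guanosine (log2 fold change 0.03, SE 0.145).

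Guanosine also lowered KRT15 and KRT17, 2 of the 3 keratins that had risen in KO, and the other, KRT39, was not called (27 counts against 43, adjusted p = 0.388 by edgeR). KRT15 read 9.23, 9.41 and 9.78 CPM (log2 fold change -1.34 against KO, SE 0.054, adjusted p = 5.37e-13), 82.2% of the WT mean. Against WT that was a fall of 0.28 on the log2 scale (adjusted p = 0.000244), which turned to 0.23 and was not called with an offset for transcript length (adjusted p = 0.415, edgeR). KRT17 fell to 0.412 ± 0.196 CPM (log2 fold change -1.37, SE 0.317, adjusted p = 0.0012), and lost the call with the length offset (adjusted p = 0.378). Among members that reached 1 CPM, KRT79 changed most with guanosine and moved away from WT (log2 fold change -3.67 against KO). It had 6 counts with guanosine, 94 in KO and 184 in WT. CLDN7 fell to 12.8, 11.7 and 11.8 CPM (log2 fold change -0.60, SE 0.049, adjusted p = 8.17e-09), below both KO and WT, and CLDN12 returned to 89.4, 90.6 and 93.0 CPM (log2 fold change -0.33, SE 0.039, adjusted p = 7.03e-07), where it overlapped WT. CLDN15 stayed high at 179% of WT and CLDN1 at 142%.

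**Figure D4:**
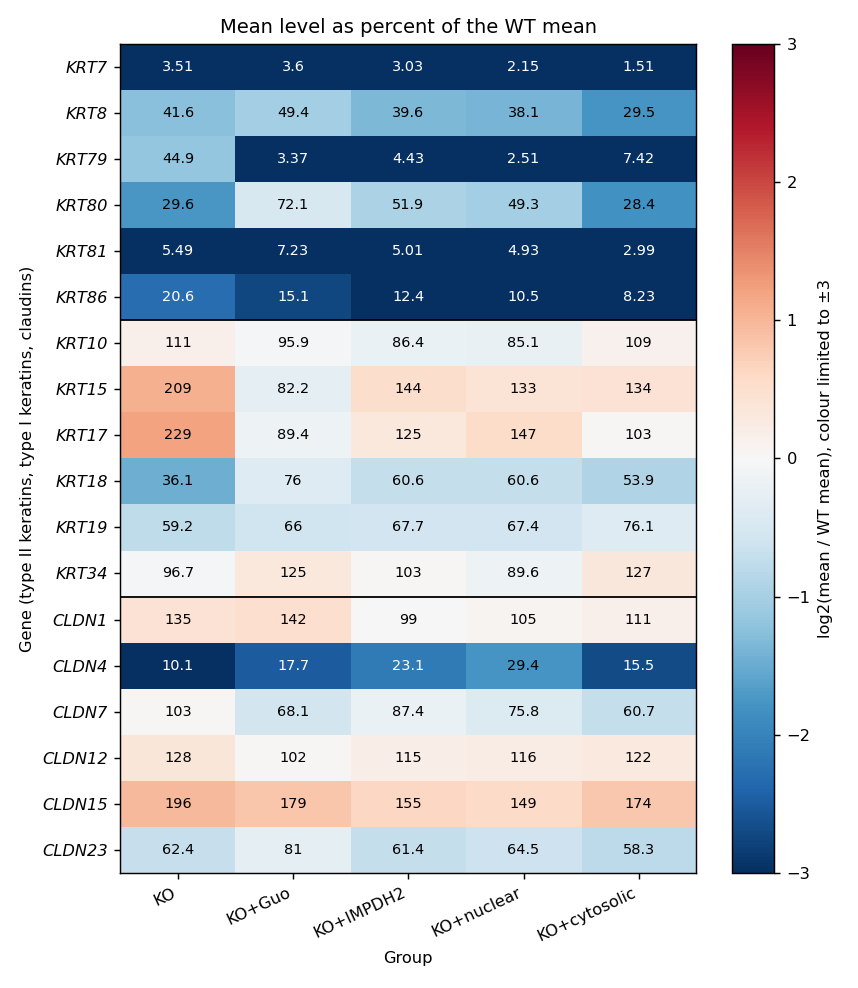
Mean CPM of the 18 members that reached 1 CPM in a group, as percent of the WT mean, for the 5 knockout-derived groups (n = 3 each); colour gives the log2 ratio, limited to ±3. KRT7 (1.51% to 3.6%) and KRT81 (2.99% to 7.23%) stay low in every column, and CLDN4 ranges from 10.1% in KO to 29.4% with the nuclear form.

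Among members that reached 1 CPM, CLDN4 had the largest rise with each form of IMPDH2. It read 12.3, 12.8 and 11.6 CPM with the unlocalised form (log2 fold change 1.19 against KO, SE 0.07, adjusted p = 1.88e-10), 16.1, 14.3 and 16.2 with the nuclear form (1.54, SE 0.069, adjusted p = 4.21e-12) and 8.95, 7.33 and 8.35 with the cytosolic form (0.62, SE 0.073, adjusted p = 1.25e-06), by edgeR's quasi-likelihood test. No library of any of these groups overlapped KO, and the group means stayed at 15.5% to 29.4% of WT. KRT18 rose with all 3 forms, to 189 ± 4.42, 189 ± 5.13 and 169 ± 6.08 CPM, with log2 fold changes of 0.75, 0.75 and 0.58. KRT80 rose with the unlocalised form (28.2 ± 1.38 CPM, log2 fold change 0.81) and the nuclear form (26.8 ± 2.45 CPM, 0.73), and with the cytosolic form it stayed at 15.5 ± 0.84 CPM and was not called (log2 fold change -0.06, SE 0.063, adjusted p = 0.45). Below 1 CPM, KRT85 was called higher with the nuclear form on 6 counts against 0 in KO, its libraries overlapping (adjusted p = 0.0443, edgeR), and CLDN9 with the cytosolic form on 29 counts against 15 (log2 fold change 1.00, adjusted p = 0.0411). CLDN9 passed the filter on counts only through groups other than KO, so a rise over KO was favoured in advance.

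KRT8 did not rise with any form of IMPDH2. It was at 131 ± 5.39 CPM with the unlocalised form, not called (log2 fold change -0.07, SE 0.036, adjusted p = 0.0988), and it fell with the nuclear form to 127 ± 6.52 (log2 fold change -0.13, SE 0.036, adjusted p = 0.00594) and with the cytosolic form to 98 ± 1.44 (log2 fold change -0.50, SE 0.036, adjusted p = 2.7e-09). KRT18 and KRT8, the usual partners in the filament, thus did not move together in the reconstituted cells. KRT7 fell further with the nuclear form (log2 fold change -0.72, SE 0.156, adjusted p = 0.000722) and the cytosolic form (-1.19, SE 0.169, adjusted p = 8e-06), but not when coding transcripts alone were summed (adjusted p = 0.92 and 0.269, edgeR). With the length offset the nuclear call was lost as well (adjusted p = 0.072).

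KRT15 fell with each form, to 16.6 ± 0.798, 15.3 ± 0.214 and 15.5 ± 1.01 CPM (log2 fold changes -0.53, -0.65 and -0.64, unlocalised, nuclear and cytosolic), and stayed at 133% to 144% of WT. All 3 calls were lost with the length offset (adjusted p = 0.0849, 0.0676 and 0.11, edgeR). KRT19 rose with the cytosolic form to 167, 178 and 184 CPM (log2 fold change 0.36, SE 0.053, adjusted p = 1.6e-05). With the unlocalised and nuclear form it rose by 0.19 each on the log2 scale, the former not called with the length offset (adjusted p = 0.0754). CLDN1 returned to the WT range with the unlocalised form (10.3 ± 0.331 CPM, log2 fold change -0.45, SE 0.065, adjusted p = 1.48e-05), which is 99% of WT. It also overlapped WT with the nuclear form (10.94 ± 0.563 CPM, 104.9% of WT) and the cytosolic form (11.54 ± 1.161 CPM, 110.7%). Neither was called against WT (adjusted p = 0.385 and 0.0586, edgeR). CLDN7 fell below WT with each form, at 15.5 ± 0.779, 13.5 ± 0.495 and 10.8 ± 0.422 CPM, and the unlocalised call was lost with the length offset both against KO (adjusted p = 0.116) and against WT (0.703).

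**Figure D5:**
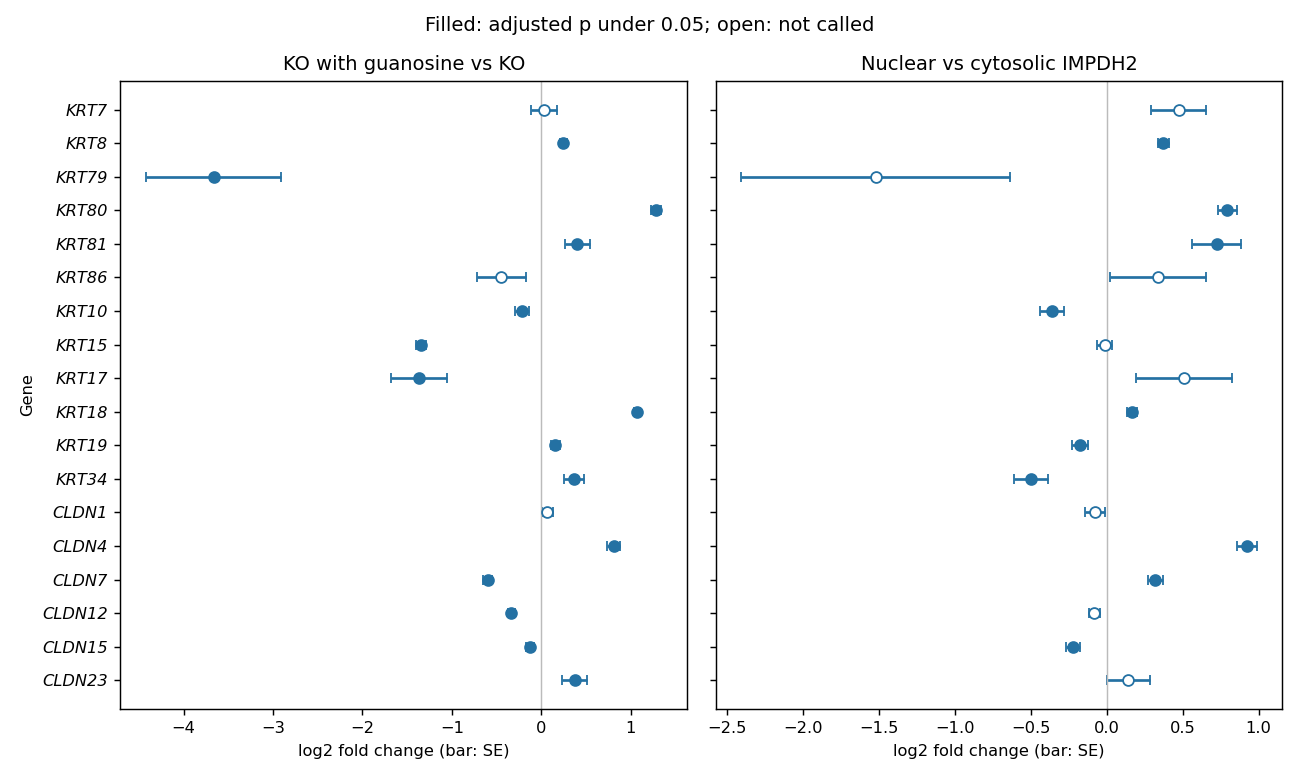
Log2 fold change (bar: SE; filled: adjusted p under 0.05) of the 18 members for guanosine against KO and for nuclear against cytosolic IMPDH2. KRT80 and KRT18 lead upward with guanosine (1.28 and 1.07), and CLDN4 and KRT80 lead upward with the nuclear form (0.92 and 0.79).

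The direct comparison of the nuclear with the cytosolic form asked whether the place of the enzyme mattered for these genes. Of 25 members 7 were higher and 4 lower with the nuclear form, 44% against 23.9% of all genes tested (13.4% higher and 10.5% lower), and 1 changed at least 2-fold (4% against 1.73%). CLDN4 was higher with the nuclear form (log2 fold change 0.92, SE 0.066, adjusted p = 2.28e-08), and so were KRT80 (0.79, SE 0.061, adjusted p = 5.69e-08) and KRT8 (0.37, SE 0.036, adjusted p = 8.78e-07), by edgeR's quasi-likelihood test. None of the nuclear libraries of these genes overlapped the cytosolic ones: KRT80 read 28.2, 24.0 and 28.2 CPM against 16.3, 14.6 and 15.4, and KRT8 127, 120 and 133 against 98.7, 96.3 and 98.9. CLDN7 (log2 fold change 0.32), KRT81 (0.72) and KRT18 (0.17) were higher too, KRT81 at a low level of 1.65 ± 0.261 against 1.00 ± 0.187 CPM. The remaining one, KRT39, rested on 48 counts against 18 and its libraries overlapped.

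Lower with the nuclear form were KRT34 (log2 fold change -0.50, SE 0.11, adjusted p = 0.00284), KRT10 (-0.36, SE 0.079, adjusted p = 0.00256), CLDN15 (-0.22, SE 0.046, adjusted p = 0.0015) and KRT19 (-0.17, SE 0.053, adjusted p = 0.0225), by edgeR. KRT10 read 29.4, 28.8 and 29.7 CPM against 35.6, 38.1 and 39.2. The KRT19 call was lost without nuclear replicate 1 or 2 or cytosolic replicate 2 or 3 (adjusted p 0.0646 to 0.107), and the length offset ended the calls of KRT19 (adjusted p = 0.761) and CLDN15 (0.0516). IMPDH2 itself was lower with the nuclear than with the cytosolic form, at 297.4 against 378.7 CPM, and its part in these differences was not tested.

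All 5 knockout-derived groups stayed below WT in KRT7, KRT81, KRT86, KRT8, KRT18, KRT19, KRT80, CLDN4 and CLDN2. Of these, CLDN2 passed the filter on counts only through WT. KRT79 was below WT in all 5 groups too, from 2.51% with the nuclear form to 44.9% in KO, where its call was lost in several refits. Against WT, guanosine left 4 members higher and 13 lower (68%, against 63.9% of all genes, 31.1% higher and 32.9% lower) and the unlocalised form 4 and 14 (72%, against 64.5%, 31.1% and 33.4%). The nuclear form left 4 and 14 (72%, against 65%, 31.5% and 33.6%) and the cytosolic form 4 and 13 (68%, against 67.6%, 32.9% and 34.7%). The shares called in either direction are near the background. By direction they are not, with 13 or 14 lower against 4 higher, where all genes split nearly evenly. The lower calls include KRT85 and CLDN2, which passed the filter on counts only through WT. The KRT19 call with the cytosolic form against WT was lost with the length offset (adjusted p = 0.0612, edgeR). At least 2-fold were 36%, 36%, 40% and 36% of members in the same order, against 14.5%, 14.9%, 15.1% and 17.5% of all genes. CLDN15 stayed above WT in all 5 groups, between 149% and 196%.

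The partners of these families, taken from lists written from background knowledge with earlier results of these data known, were counted in the same way. Of 15 tested genes of desmosomes and other keratin anchors (21 listed), 14 were lower and 1 higher in KO than in WT, where 36.8% of all genes were lower and 35.9% higher. Their median log2 fold change was -0.71 beside 0.01 over all genes. The desmosomal cadherin DSG2 went from 214.3 to 78.6 CPM (log2 fold change -1.45) and DSC2 from 15.1 to 2.14 (-2.83). ITGA6, the integrin that anchors keratin through hemidesmosomes, went from 546.6 to 258.6 CPM, while its partner ITGB4 rose from 55.8 to 101.7. With guanosine 11 of the 15 were higher and 1 lower than in KO (27.3% and 29.2% of all genes), DSG2 reaching 122.7 CPM. In the nuclear against the cytosolic group 8 were higher and 0 lower (13.4% and 10.5% of all genes), among them DSP, the plaque protein that binds keratin filaments (74.1 against 53.5 CPM, log2 fold change 0.47, adjusted p = 1.28e-08 by edgeR), and JUP (15.4 against 8.31 CPM, log2 fold change 0.89).

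Of 22 tested tight junction partners of the claudins (26 listed), 12 were lower and 5 higher in KO, with a median of -0.36, where 36.8% of all genes were lower and 35.9% higher. F11R, a junctional adhesion molecule, went from 42.2 to 17.4 CPM and LSR, which marks the corners where 3 cells meet, from 9.90 to 1.06. AMOT, a junction-associated scaffold, rose from 0.296 to 11.1 CPM and CGN, which links junctions to actin, from 6.17 to 11.3. With guanosine 12 of these partners were higher and 5 lower than in KO (27.3% and 29.2% of all genes), and OCLN, the membrane protein occludin, went from 24.9 to 34.5 CPM. Nuclear against cytosolic IMPDH2 gave 7 higher and 2 lower (13.4% and 10.5% of all genes).

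Genes of adherens junctions and epithelial identity gave 10 lower and 2 higher of 18 tested (25 listed) in KO, with a median of -0.83, against 36.8% lower and 35.9% higher of all genes. CTNNB1 and CTNNA1, the catenins of adherens junctions, were lower at 254.2 against 533.6 and 380.9 against 776.4 CPM. Of 8 tested transcriptional repressors of epithelial genes (13 listed), 4 were lower in KO, a share near the 36.8% of all genes, with SNAI2 at 8.46 against 26.8 CPM and ZEB1 at 99.7 against 110.4, and KLF8 alone was higher, at 3.91 against 0.349. Of the other intermediate filament genes 6 of 8 tested (15 listed) were lower in KO and 1 higher, with a median of -0.72. LMNB1, of the nuclear lamina, went from 176.2 to 42.4 CPM, and VIM, the mesenchymal counterpart of the keratins, from 4765 to 3411.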

How the data were processed

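The authors made and deposited tables of Salmon's estimated count, the unit of all tests here, and of TPM for each transcript, per the file headers. Trim Galore 0.6.10, Salmon 1.10.0 and the genome hg19 are named in the submitters' processing notes. The deposited tables also give effective lengths, which served as an offset. Positions were taken from GENCODE 29 (GRCh38) by gene identifier, and all 79 members matched. Counts were summed to genes and rounded, since 32.5% of transcript values were not whole, and CPM was computed from them with TMM. After filterByExpr 19252 genes entered 1 edgeR 4.0.16 fit (R 4.3.3) of 18 libraries with a mean per group. The quasi-likelihood test was adjusted over all genes within each of 10 comparisons, and the biological coefficient of variation was 4.87%. The fit was tested on simulated data. TPM carries no TMM scaling. It served to compare genes and to give sums, shares, ratios and single transcripts per group, and no test between groups was run on it. Members with a mean of at least 1 CPM in some group were named, and up to 4 genes per direction from each partner list. The members and lists were chosen with earlier results of these data known. Alternatives were DESeq2 1.42.0 (its size factors, its Wald test), no filter, a replicate block, the compared samples alone, a length offset, pseudogene copies added, coding genes alone and each library left out. Python 3.11.15 drew the plots. The cell line field of the labels carries a number that rises from sample to sample, and 1 line was assumed from the growth protocol. No 2 libraries of a group agreed within sampling noise. Intervals and floors cover counting error only.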

Additional observations from a re-analysis of the deposited data

How the results depend on the processing

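The number of members called stayed within 1.5 times in all 10 comparisons under every alternative run, except that an offset for transcript length left 8 calls in place of 13 for the unlocalised form against KO (3 higher, 5 lower). The cause was not tested. One named value turned direction: KRT15 with guanosine against WT, at 0.23 with the length offset and -0.28 without it. Leaving out 1 library at a time gave 17 to 19 calls for KO against WT, 16 to 18 with guanosine, 16 to 18 with the unlocalised, 17 to 18 with the nuclear and 17 to 18 with the cytosolic form against WT, 12 to 14, 11 to 13, 14 to 15 and 14 to 15 for the same groups against KO, and 10 to 11 for nuclear against cytosolic. Of 140 named calls, 21 were lost and 1 turned with the length offset, 8 were lost with coding transcripts alone (an alternative chosen after seeing the data), 5 without the filter on low counts, 2 in fits of the compared samples alone, 1 with the DESeq2 Wald test and 0 with DESeq2 size factors, with pseudogene copies added or with coding genes alone. Leaving out 1 library at a time lost a named call in 37 refits and kept it in 803. Same-numbered libraries showed little shared deviation (correlations of -0.086 to 0.142). With 3 libraries per group a small shared effect could be missed, so whether the numbers pair the samples is not settled. With the replicate number as a block the counts were 18, 17, 18, 18 and 17 against WT, 16, 13, 14 and 16 against KO and 11 for nuclear against cytosolic, and 0 of 140 named calls were lost. Copies named as pseudogenes held at most 4.18% of KRT8 and 0.55% of KRT18 counts. At the depth of these libraries, members with few counts per group were not tested or have wide errors.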

Other observations

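Tested members under 1 CPM in every group moved little in absolute terms. CLDN3 reached 0.796 ± 0.0591 CPM with guanosine against 0.36 ± 0.0733 in WT (SD, n = 3 each; log2 fold change 1.14, adjusted p = 0.00456 by edgeR's quasi-likelihood test). CLDN9 had 34 counts with guanosine and 15 in KO (log2 fold change 1.38, adjusted p = 0.00339, edgeR), against 24 in WT. It passed the filter on counts only through groups other than KO, so a rise over KO was favoured in advance. KRT39 had 43 counts in KO and 15 in WT (adjusted p = 0.015, edgeR), and 48 with the nuclear form. It passed the filter on counts only through knockout-derived groups, so a rise over WT was favoured in advance. KRT16 and KRT32 were called in none of the 10 comparisons. Of 20 cornified envelope genes 3 were tested: in KO against WT, SFN went from 85.4 to 35.6 CPM and FLG from 0.869 to 0.129, and TGM1 rose from 1.84 to 2.89.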
